A study of Mus musculus with 20 samples.

Results

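Promoters of imprinted genes outside the best-studied imprinted loci were examined in mouse sperm, by imprinted domain, level and change after prenatal exposure to di-(2-ethylhexyl)phthalate (DEHP). Of 22480 promoters in the deposited table, 126 were marked as imprinted by the authors. The 18 most studied genes or transcripts, such as H19 and Peg3, and 14 further genes with symbols beginning Mir or Snor were left out, which gave 94 promoters. The rule that chose them used no measured value, but it was set with earlier results of these data known. Sperm DNA came from males of 2 inbred strains, C57BL/6J and FVB/N, at 8 weeks of age. Mothers received DEHP, a plasticizer, orally at 300 mg/kg/day in corn oil from gestation day 9 to 19, or corn oil alone (control). Control and DEHP groups of each strain held 5 libraries, 1 per male, and the sperm was taken from the epididymis and vas deferens. Litters are not given in the labels, so that p-values rest on the spread between libraries and not between litters. Within C57BL/6J and between the DEHP groups, that spread was pooled over promoters of similar mean level, without a promoter's own SD. The 2 strains were present in each of 2 sequencing submissions, but controls and DEHP samples were submitted separately, so that treatment and submission cannot be told apart.

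Imprinted genes are expressed from the maternal or the paternal copy alone, and most lie in domains held by a differentially methylated region (DMR). Methylation of a germline DMR is set in the oocyte or in the sperm and survives the demethylation that follows fertilization. Most germline DMRs are methylated in oocytes and free of methylation in sperm, whereas a few, such as that of H19, are methylated in sperm. A further group of paternally expressed genes is held silent on the maternal copy by the histone mark H3K27me3 instead. In MBD-sequencing, sheared DNA that binds a protein domain with affinity for methylated CG sites is kept and sequenced, so that the reads over a promoter depend both on methylation and on how many CG sites it holds. Values are the authors' mean normalized reads per group, and each value after ± is the authors' SD over the 5 libraries. Every probe was 2200 bp long, so that means compare as levels per length. Single libraries were not analysed here and the depth of each is unknown, but per the methods DEHP libraries had on average more and slightly longer read-pairs than control libraries. Where 4 values are given in a row, they are those of C57BL/6J control and DEHP, then of FVB/N control and DEHP.

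The 94 probes lay on 18 chromosomes, with 33 on chromosome 7 and 14 on chromosome 6. Of these, 62 belonged to listed members of an imprinted domain, 9 were placed in a domain by position and 23 lay outside the domains. In all, 20 domains had at least 1 promoter. The X-linked genes were counted as 1 of the 20, although they are a group by chromosome and not an imprinted domain. The number of CG sites per probe ranged from 6 to 183, and its median of 45 was that of all promoters. Their median GC content was 48.0%, as in all promoters, and the ratio of observed to expected CG was 0.384 against 0.358. The 6 letters TGCCGC, bound by the imprint-protecting zinc finger protein ZFP57 when methylated, were present on either strand in 37 of the 94 probes (39.4%) and in 36.2% of all probes. In 64 probes (68.1%) the authors counted no variant between the strains, against 53.9% of all probes.

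The promoters differed widely in how their CG sites were spaced. The stretch of 200 bases with most CG sites upstream of the gene start that the probe was placed on, outside annotated untranslated regions, is given for the promoters that carry the results: the highest level (6430411K18Rik and Th), the decreases shared by both strains (also Sgce and Tsix), an increase (AF357426) and the most CG sites (Kcnk9). Sequences run 5′ to 3′ on the strand of the gene, were read from GRCm38.p6 (the assembly of mm10) and have CG sites in capitals.
6430411K18Rik (mm10 chr12:109590371-109590570, plus strand): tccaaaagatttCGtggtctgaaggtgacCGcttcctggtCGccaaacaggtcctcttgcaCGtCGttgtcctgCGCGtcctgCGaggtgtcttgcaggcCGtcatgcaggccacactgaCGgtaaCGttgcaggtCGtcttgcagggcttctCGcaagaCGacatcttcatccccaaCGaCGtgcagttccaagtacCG
Th (mm10 chr7:142900036-142900235, minus strand): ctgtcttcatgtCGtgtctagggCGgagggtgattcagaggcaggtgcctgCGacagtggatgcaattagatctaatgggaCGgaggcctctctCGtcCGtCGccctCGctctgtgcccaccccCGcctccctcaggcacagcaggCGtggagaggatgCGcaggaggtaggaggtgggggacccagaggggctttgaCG
Sgce (mm10 chr6:4748216-4748415, minus strand): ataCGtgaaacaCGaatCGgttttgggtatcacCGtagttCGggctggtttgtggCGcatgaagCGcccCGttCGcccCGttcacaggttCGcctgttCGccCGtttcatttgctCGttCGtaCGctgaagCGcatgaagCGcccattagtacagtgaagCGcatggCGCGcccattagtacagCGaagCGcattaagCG
Tsix (mm10 chrX:103431304-103431503, plus strand): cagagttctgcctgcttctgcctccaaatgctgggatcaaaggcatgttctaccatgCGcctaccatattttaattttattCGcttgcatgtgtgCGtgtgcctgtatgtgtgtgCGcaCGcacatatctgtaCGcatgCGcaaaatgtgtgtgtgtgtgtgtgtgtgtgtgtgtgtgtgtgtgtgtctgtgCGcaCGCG
AF357426 (mm10 chr12:109642220-109642419, plus strand): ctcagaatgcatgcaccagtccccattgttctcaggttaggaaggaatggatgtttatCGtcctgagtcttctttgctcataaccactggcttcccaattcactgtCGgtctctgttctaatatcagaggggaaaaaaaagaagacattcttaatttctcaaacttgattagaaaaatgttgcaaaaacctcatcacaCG
Kcnk9 (mm10 chr15:72546600-72546799, minus strand): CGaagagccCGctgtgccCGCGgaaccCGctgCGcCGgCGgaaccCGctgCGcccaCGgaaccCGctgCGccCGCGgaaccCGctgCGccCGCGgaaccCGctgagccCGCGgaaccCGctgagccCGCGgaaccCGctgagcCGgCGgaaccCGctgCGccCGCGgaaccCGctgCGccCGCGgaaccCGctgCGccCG
The stretches held 17 CG sites for 6430411K18Rik, 12 for Th, 24 for Sgce, 10 for Tsix, 3 for AF357426 and 39 for Kcnk9. That of 6430411K18Rik lies in the coding exon of Rtl1 on the other strand and overlaps Mir431. That of Th lies within the annotated Th gene but in no exon, and that of Tsix in an intron of Gm26992 on the same strand. That of Sgce lies in an intron of Peg10, which starts beside Sgce and runs the other way, and that of AF357426 lies in Rian and overlaps an exon of Gm26945.

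As a check of the sperm label, H19, methylated in sperm, had 25.3 and 18.8 normalized reads in C57BL/6J and FVB/N controls. Of 6 genes listed as free of methylation in sperm, Snrpn, Peg3, Mest, Plagl1 and Grb10 lay between 0.5 and 5.4 in both controls. The sixth, Nnat, went against the label with 26.5 and 18.1. The 6 had a median of 2.95 in each control group.

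In control sperm the imprinted promoters had medians close to those of all promoters but fewer high levels. Their median of 5.2 normalized reads in C57BL/6J compared with 5.0 over all promoters, and that of 3.15 in FVB/N with 3.0. The upper quartile was 8.45 against 12.7 in C57BL/6J, and 5.95 against 7.3 in FVB/N. At least 20 normalized reads were found in 5 of the 94 (5.32%, against 14.6% of all promoters) in C57BL/6J, and in 2 (2.13%, against 6.25%) in FVB/N. By the mean of both controls, 2 of the 94 were among the highest 5% of all promoters and 8 among the lowest 10%. These levels are descriptions without a test.

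**Figure D1:**
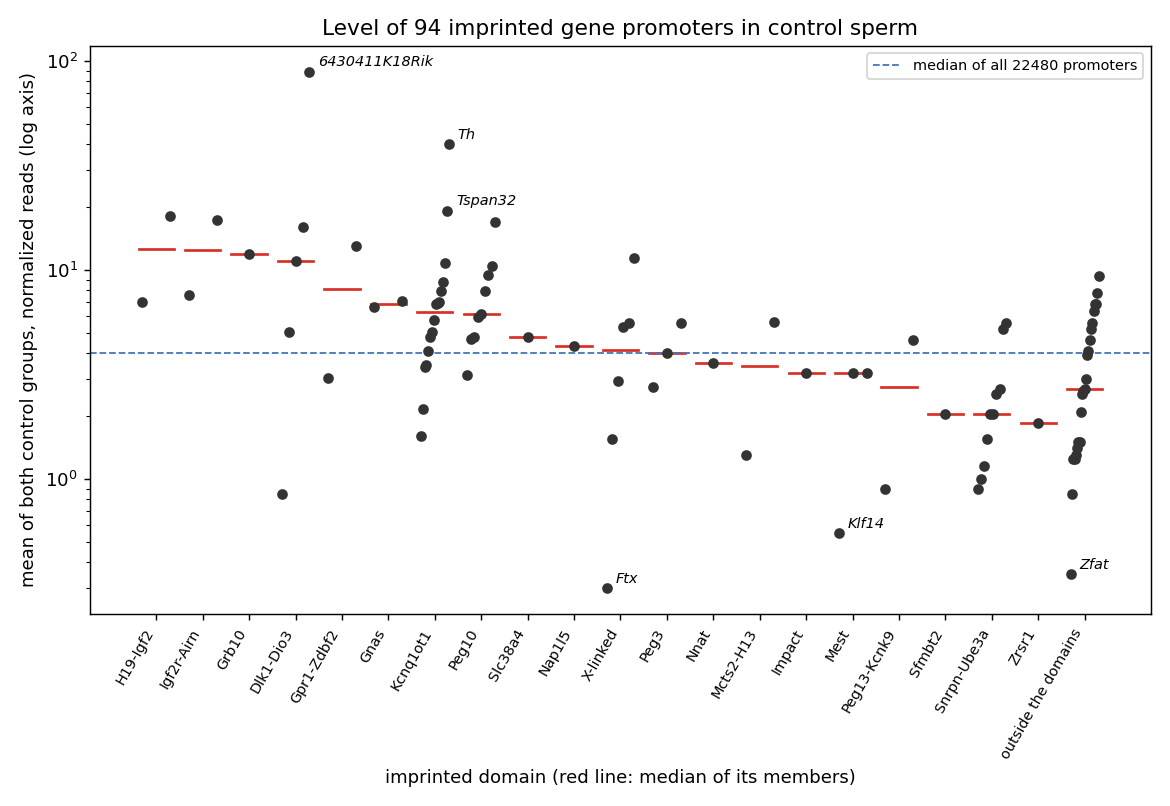
Mean normalized reads of both control groups (log axis) for the 94 promoters, 1 point each, by imprinted domain. Red lines are domain medians, the dashed line is the median of all promoters, and 6430411K18Rik and Th stand above the other points whereas Ftx is the lowest.

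The highest level was that of 6430411K18Rik, a transcript of the Dlk1-Dio3 domain of unassigned function, at mm10 chr12:109589537-109591736, a probe over exons of Rtl1, Mir431 and Mir433. It had 102.0 ± 37.5 normalized reads in C57BL/6J controls and 75.8 ± 19.1 in FVB/N controls, in the 99.9th percentile of all promoters. Its probe shares 1110 bp with that of Mir431. The second was Th (chr7:142899767-142901966), which encodes the rate-limiting enzyme of catecholamine synthesis, with 44.5 ± 14.9 and 35.2 ± 6.9. With 27 CG sites it had 1.48 normalized reads per CG site, close to the 1.68 of 6430411K18Rik with 53 sites. Tspan32, a tetraspanin of blood cells, followed with 26.3 ± 4.4 and 12.2 ± 9.8. Nctc1, a non-coding transcript downstream of H19, had 26.0 ± 8.2 and 10.3 ± 7.4, and the organic cation transporter Slc22a2 had 22.7 ± 11 and 12.1 ± 9.4. The FVB/N control libraries of these 3 were widely spread.

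At the other end, Ftx, a non-coding gene of the X inactivation centre, had 0.2 ± 0.5 and 0.4 ± 0.6 in the controls of C57BL/6J and FVB/N. Zfat, a zinc finger gene, had 0.2 ± 0.5 and 0.5 ± 0.6. Klf14, a maternally expressed transcription factor gene beside Mest, had 0.7 ± 1.1 and 0.4 ± 0.6 although its probe held 78 CG sites. AF357426, a small RNA gene over Rian, and Lin28a, which blocks let-7 maturation, each had 1.2 in C57BL/6J controls and 0.5 in those of FVB/N. Kcnk9, a potassium channel gene with 183 CG sites, had 1.2 ± 0.9 and 0.6 ± 1.4. Thus a low level was seen at 9 CG sites (AF357426) as well as at 183 (Kcnk9).

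**Figure D2:**
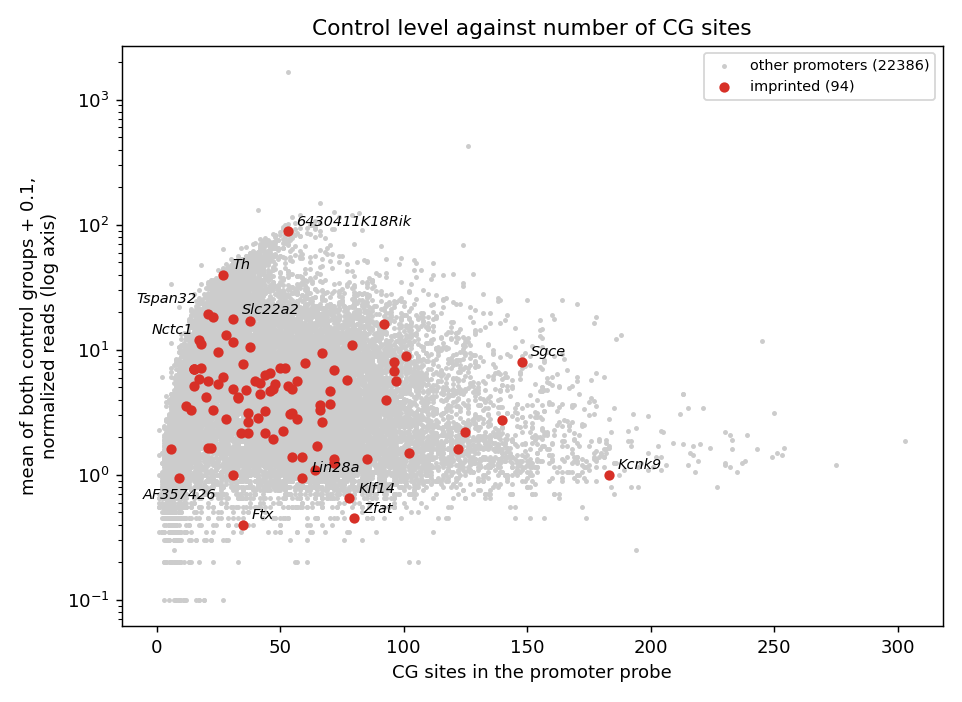
Mean of both controls plus 0.1 (log axis) against the number of CG sites in the probe, for the 94 imprinted promoters (red) and all others (grey). The imprinted points lie within the cloud, with 6430411K18Rik (53 sites) and Th (27 sites) at its upper edge.

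Imprinted promoters with 21 to 40 CG sites lay below others of that class. Their median in C57BL/6J controls was 6.3 over 28 promoters, against 14.2 over all 5279 promoters of the class, and 3.55 against 7.7 in FVB/N. With 1 to 20 CG sites the order was the other way, 8.1 over 13 promoters against 3.5 over all, and 3.4 against 2.1 in FVB/N. With 41 to 60 CG sites both medians were 5.2 in C57BL/6J and 3.1 for FVB/N. These differences were not tested.

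By domain, the Snrpn-Ube3a region on chromosome 7 was low, with a median of 2.15 normalized reads in C57BL/6J controls and 1.4 in FVB/N over 10 promoters. It included Ube3a, the maternally expressed ubiquitin ligase gene of Angelman syndrome, at 0.7 ± 1.0 and 1.3 ± 1.6. Snurf had 1.2 ± 0.8 and 1.9 ± 1.7, and Ndn had 0.7 ± 1.1 and 1.1 ± 1.3. The Snurf probe lies over exons of Snurf and Snrpn but shares no bases with the Snrpn probe. Magel2, a MAGE family gene next to Ndn, was the highest of the region by the mean of both controls, with 7.3 ± 1.8 and 3.8 ± 3.7. The SDs of Ube3a and Ndn were above their means.

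The Kcnq1ot1 domain, also on chromosome 7, held 16 promoters with a median of 8.55 in C57BL/6J and 4.25 for FVB/N controls. Among its maternally expressed genes, the potassium channel gene Kcnq1 had 13.1 ± 4.1 and 8.6 ± 4.7 and the cell cycle inhibitor gene Cdkn1c had 10.3 ± 3.8 and 7.2 ± 3.7. Phlda2, which restrains growth of the placenta, had 9.0 ± 3.6 and 6.8 ± 2.1, and the lowest was Nap1l4, a histone chaperone gene, with 2.1 ± 1.3 and 1.1 ± 1.0. The 9 promoters of the Peg10 domain on chromosome 6 had medians of 8.3 and 4.2. They ranged from the paraoxonase gene Pon3, with 18.9 ± 2.1 and 15.1 ± 2.3, to the homeobox gene Dlx5, with 3.5 ± 1.1 and 2.8 ± 2.1. In the Peg3 domain Usp29, a ubiquitin protease gene, had 3.0 ± 2.0 and 8.1 ± 5.9. In the Mest domain the carboxypeptidase gene Cpa4 had 4.8 ± 3.2 and 1.6 ± 1.4.

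Of the 94 genes, 8 belong to a list of genes at a germline DMR of oocyte origin, and these had a median of 5.15 in C57BL/6J and 4.1 for FVB/N controls. The highest in C57BL/6J was Gnas, the gene of the stimulatory G protein alpha subunit, with 7.6 ± 3.9 and 6.6 ± 4.3. Nespas, antisense to the Nesp transcript of the Gnas locus, had 5.2 ± 3.4 and 8.1 ± 4.9. Mcts2, a retrogene within H13, had 7.4 ± 3.5 and 3.9 ± 2.3, and Peg13, a non-coding RNA within Trappc9, had 5.2 ± 1.5 and 4.0 ± 1.3. Nap1l5, a retrogene within Herc3, had 4.5 ± 1.4 and 4.2 ± 1.9. Snurf and Sgce completed the list together with Impact, which had 4.0 ± 1.2 and 2.4 ± 1.3. Sgce had 5.1 ± 3.4 and 10.8 ± 3.5, the highest of the 8 in FVB/N controls. The list is by gene, and whether each probe covers the germline DMR was not checked. The Gnas probe lies over exons of both Gnas and Nespas. A 2200 bp probe can hold both a DMR and its flanks, and which part gave the reads was not tested. The 3 genes with H3K27me3-dependent imprinting were the amino acid transporter gene Slc38a4 with 5.4 ± 1.3 and 4.2 ± 2.4, the Polycomb-related gene Sfmbt2 with 2.8 ± 1.4 and 1.3 ± 1.0, and the adaptor gene Gab1 with 2.6 ± 1.9 and 2.5 ± 2.1.

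By the allele expressed, the 19 paternally expressed genes had control medians of 4.0 in C57BL/6J and 3.8 for FVB/N, and the 30 maternally expressed genes 6.8 and 3.05. The 2 lists therefore stood in a different order in the 2 strains, and their difference was not tested.

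The first comparison asked which promoters differed between DEHP and control within a strain. A promoter was called at an adjusted p under 0.05 in limma's moderated test, Benjamini-Hochberg adjusted over all 22480 promoters, on log2 of the mean plus 1. Log2 ratios are DEHP over control, with 95% confidence intervals. In C57BL/6J, 11 of the 94 promoters (11.7%) were called, against 18.3% of all promoters. Of these, 4 were higher in DEHP (4.26%, against 3.65% of all) and 7 were lower (7.45%, against 14.7%). In FVB/N, 6 promoters (6.38%) were called against 4.03% of all, 2 of them higher (2.13%, against 2.18%) and 4 lower (4.26%, against 1.85%). In the same direction in both strains, 4 promoters were called (4.26%, against 2.08% of all), and 0 in opposite directions (0.0133% of all).

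The scale of the deposited means bears on these counts. Over all promoters, the sum of the means was 226268 normalized reads for C57BL/6J controls and 153283, 141091.6 and 150346 in the other groups, in the order above. With sums set equal, 16 of the 94 promoters were higher (14.1% of all) and 1 lower (3.65% of all) in C57BL/6J. With medians set equal the counts were 3 higher (3.17% of all) and 9 lower (17.4% of all). In FVB/N, equal sums gave 2 higher (1.64% of all) and 4 lower (2.30% of all), and equal medians gave 0 higher (0.761% of all) and 9 lower (8.77% of all). Calls that held in the same direction under all 3 scalings numbered 4 in C57BL/6J (4.26%, against 6.82% of all), 3 of them higher (3.17% of all) and 1 lower (3.65% of all). In FVB/N they also numbered 4 (4.26%, against 2.58% of all), 0 of them higher (0.730% of all) and 4 lower (1.85% of all). For C57BL/6J the median log2 ratio of the 94 was 0.00 (all promoters -0.10), and for FVB/N it was 0.41 (all promoters 0.35). With equal sums the medians were 0.42 and 0.40 (all promoters 0.33 and 0.29), and with equal medians -0.07 and -0.09 (all promoters -0.16 and -0.17). In both strains the sign of the imprinted median thus depended on the scaling. At an unadjusted p under 0.05, 18 of the 94 passed limma's test in C57BL/6J (19.1%, against 30.6% of all) and 29 in FVB/N (30.9%, against 22.4% of all).

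**Figure D3:**
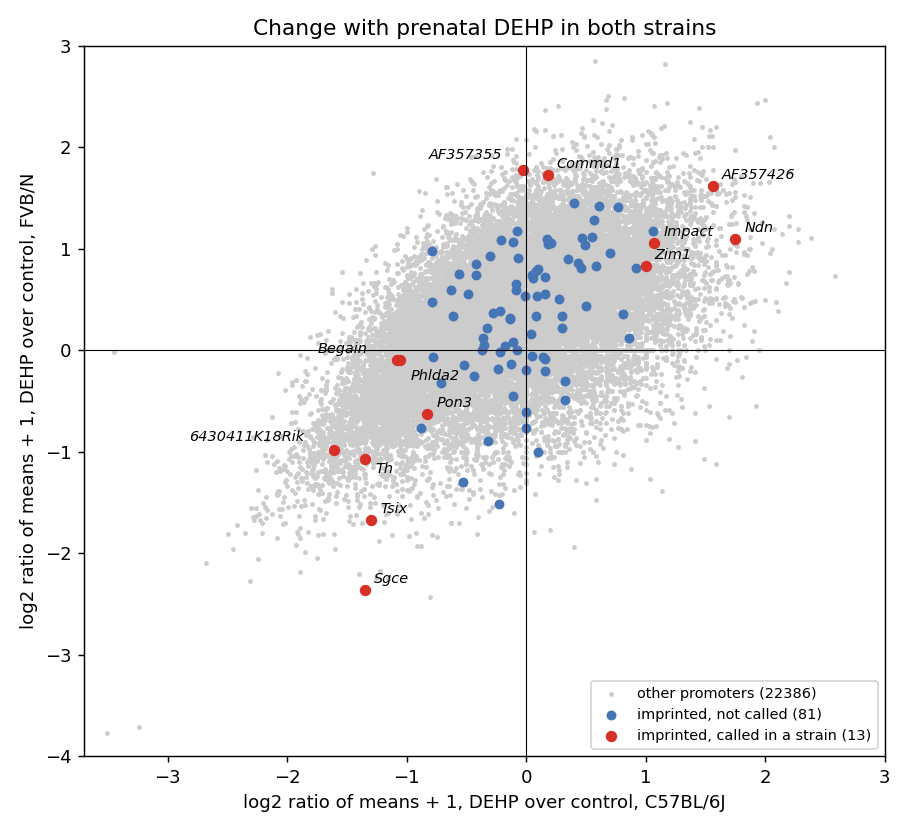
Log2 ratio of means plus 1, DEHP over control, in C57BL/6J (horizontal) and FVB/N (vertical), for all promoters (grey) and the 94 imprinted promoters (blue, red if called in a strain). The 4 promoters called lower in both strains, 6430411K18Rik, Th, Tsix and Sgce, lie at the lower left.

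The 4 promoters called in both strains were all lower in DEHP. For 6430411K18Rik the mean was 102.0 ± 37.5 in C57BL/6J controls and 32.8 ± 18 in C57BL/6J DEHP. The FVB/N means were 75.8 ± 19.1 without and 37.9 ± 8.1 with DEHP. Both DEHP means lay below both control means. The log2 ratio was -1.61 (-2.32 to -0.90, adjusted p = 0.000278) in C57BL/6J and -0.98 (-1.42 to -0.55, adjusted p = 0.0173) in FVB/N. It was called under all 3 scalings in each strain.

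The mean of Th was 44.5 ± 14.9 in C57BL/6J controls and 16.8 ± 10.9 in C57BL/6J DEHP, and 35.2 ± 6.9 and 16.3 ± 3.4 in FVB/N. Its log2 ratio was -1.35 (-1.96 to -0.74, adjusted p = 0.000382) in C57BL/6J and -1.07 (-1.55 to -0.58, adjusted p = 0.0190) in FVB/N. In FVB/N, given the means and SDs, no control library could lie below 22.7 and no DEHP library above 22.5, so that every DEHP library was below every control library. With equal sums the C57BL/6J call was lost (log2 ratio -0.81, adjusted p = 0.0509) whereas the FVB/N call held under all 3 scalings.

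High promoters moved in this direction in general. Among all 1609 promoters with a mean of at least 20 normalized reads over the 4 groups, 99.1% had a lower mean with DEHP in C57BL/6J (median log2 ratio -1.13), as did 78.7% in FVB/N (-0.44). The 2 imprinted promoters of this class were 6430411K18Rik and Th. Between 10 and 20 normalized reads, 10 of 11 imprinted promoters had a lower mean in C57BL/6J DEHP (90.9%, against 90.7% of all promoters of the class). In FVB/N these were 5 of 11 (45.5%, against 41.5%).

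Sgce (chr6:4747005-4749204), a paternally expressed gene that encodes epsilon-sarcoglycan, fell although its level was moderate. Its mean was 5.1 ± 3.4 in C57BL/6J controls and 1.4 ± 1.0 in C57BL/6J DEHP, and 10.8 ± 3.5 and 1.3 ± 1.3 in FVB/N. The log2 ratio in FVB/N was -2.36 (-3.30 to -1.42, adjusted p = 0.00987), the lowest of the 94 promoters. No FVB/N control library could lie below 4.4 and no FVB/N DEHP library above 3.76. In C57BL/6J the log2 ratio was -1.35 (-2.20 to -0.49, adjusted p = 0.0164), a call that was lost with equal sums (-0.91, adjusted p = 0.102). The Sgce probe holds 148 CG sites and shares 501 bp with that of Peg10, of which the means were 2.1, 2.5, 2.7 and 2.2.

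Tsix (chrX:103429517-103431716), the antisense RNA that represses Xist, had 9.6 ± 4.5 in C57BL/6J controls and 3.3 ± 1.2 in C57BL/6J DEHP, and 13.3 ± 3.1 and 3.5 ± 1.3 in FVB/N. The log2 ratio was -1.67 (-2.37 to -0.97, adjusted p = 0.0128) in FVB/N, where the control libraries could not lie below 7.62 nor the DEHP libraries above 5.96. In C57BL/6J it was -1.30 (-2.03 to -0.58, adjusted p = 0.00522), and with equal sums -0.81 (adjusted p = 0.0947). Its neighbours on the X chromosome were not called in either strain on the deposited scale. Zcchc13 had 1.5 ± 1.6, 1.0 ± 1.4, 1.6 ± 0.7 and 0.4 ± 0.5. In FVB/N limma called it lower with equal medians (adjusted p = 0.0347) and with the trend on CG sites removed (adjusted p = 0.0336). Xist itself had 5.5 ± 2.1, 4.9 ± 1.9, 5.2 ± 1.8 and 6.7 ± 3.7. The non-coding gene Jpx, an activator of Xist, had 3.3 ± 2.1, 2.9 ± 1.4, 2.6 ± 2.3 and 3.5 ± 2.4.

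**Figure D4:**
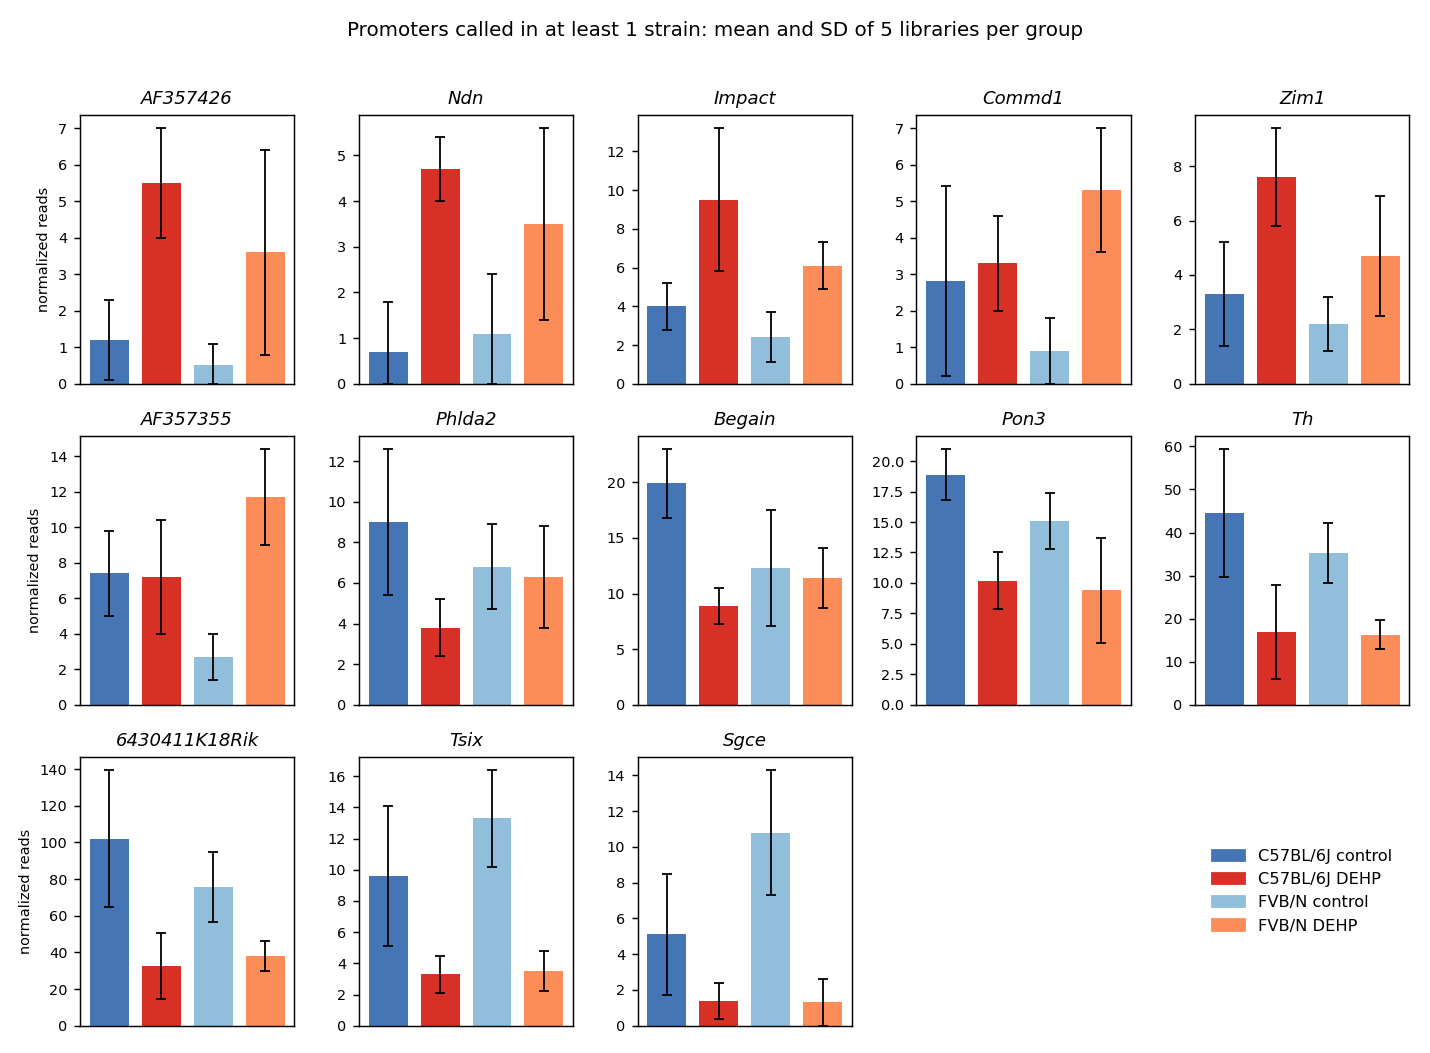
Mean normalized reads (bars) and SD of 5 libraries (error bars, drawn down to 0 at most) in the 4 groups for the 13 imprinted promoters called in at least 1 strain. Sgce, Tsix, 6430411K18Rik and Th are lower in both DEHP groups, and AF357355 and Commd1 are higher in FVB/N DEHP than in FVB/N control.

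In C57BL/6J alone, 3 further promoters were called lower, each without a call under equal sums. Begain (chr12:109068018-109070217), which encodes a synaptic protein, had 19.9 ± 3.1 in controls and 8.9 ± 1.6 in DEHP, a log2 ratio of -1.08 (-1.68 to -0.47, adjusted p = 0.00577). No control library could lie below 14.2 and no DEHP library above 11.9. Its FVB/N means of 12.3 ± 5.2 and 11.4 ± 2.7 gave -0.10 (-0.78 to 0.58, adjusted p = 0.873). With equal sums the C57BL/6J ratio was -0.55 (adjusted p = 0.193).

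Pon3 (chr6:5256034-5258233) had 18.9 ± 2.1 in C57BL/6J controls and 10.2 ± 2.3 in C57BL/6J DEHP, a log2 ratio of -0.83 (-1.43 to -0.22, adjusted p = 0.0419). The lowest value possible in a control library was 15.0 and the highest possible in a DEHP library was 14.5. In FVB/N the means were 15.1 ± 2.3 and 9.4 ± 4.3, with a log2 ratio of -0.63 (-1.30 to 0.04, adjusted p = 0.249). The scalings changed both calls, since with equal sums the C57BL/6J ratio was -0.30 (adjusted p = 0.504) and with equal medians the FVB/N ratio was -1.29 (adjusted p = 0.0153). Phlda2 (chr7:143502325-143504524) had 9.0 ± 3.6 and 3.8 ± 1.4 in C57BL/6J, a log2 ratio of -1.06 (-1.78 to -0.34, adjusted p = 0.0267), and 6.8 ± 2.1 and 6.3 ± 2.5 in FVB/N. With equal sums its C57BL/6J ratio was -0.57 (adjusted p = 0.252).

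In C57BL/6J DEHP, 4 promoters were called higher than in C57BL/6J control. Ndn (chr7:62346277-62348476), a paternally expressed MAGE family gene active in neurons, rose from 0.7 ± 1.1 in C57BL/6J controls to 4.7 ± 0.7 in C57BL/6J DEHP. The log2 ratio was 1.75 (0.87 to 2.62, adjusted p = 0.00176), and no control library could lie above 2.81 nor a DEHP library below 3.31. In FVB/N the means were 1.1 ± 1.3 and 3.5 ± 2.1, with a log2 ratio of 1.10 (0.06 to 2.14, adjusted p = 0.201). The C57BL/6J call held under all 3 scalings.

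Impact (chr18:12970252-12972451), a paternally expressed regulator of the GCN2 stress pathway, had 4.0 ± 1.2 in C57BL/6J controls and 9.5 ± 3.7 in C57BL/6J DEHP, a log2 ratio of 1.07 (0.36 to 1.78, adjusted p = 0.0223). The FVB/N means of 2.4 ± 1.3 and 6.1 ± 1.2 gave a similar ratio of 1.06 (0.25 to 1.88) that was not called (adjusted p = 0.12). The C57BL/6J call held under all 3 scalings. AF357426 (chr12:109640838-109643037), whose probe lies over Rian, rose from 1.2 ± 1.1 to 5.5 ± 1.5 in C57BL/6J, a log2 ratio of 1.56 (0.71 to 2.42, adjusted p = 0.00439) that held under all 3 scalings. Its FVB/N means were 0.5 ± 0.6 and 3.6 ± 2.8, with 1.62 (0.63 to 2.60, adjusted p = 0.0617). Zim1 (chr7:6696233-6698432), a maternally expressed zinc finger gene beside Peg3, had 3.3 ± 1.9 and 7.6 ± 1.8, a log2 ratio of 1.0 (0.25 to 1.75, adjusted p = 0.0495) at the edge of the threshold. With equal medians its ratio was 0.91 (adjusted p = 0.0669).

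In FVB/N alone, 2 promoters were called higher. AF357355 (chr12:109652627-109654826), also over Rian, rose from 2.7 ± 1.3 to 11.7 ± 2.7, a log2 ratio of 1.78 (1.02 to 2.54, adjusted p = 0.0136). No FVB/N control library could lie above 5.16 nor a DEHP library below 6.73. In C57BL/6J its means were 7.4 ± 2.4 and 7.2 ± 3.2, with a log2 ratio of -0.03 (-0.71 to 0.64, adjusted p = 0.958) that turned to 0.45 with equal sums. Commd1 (chr11:22982085-22984284), a maternally expressed gene of copper metabolism that hosts Zrsr1 in an intron, rose from 0.9 ± 0.9 to 5.3 ± 1.7, a log2 ratio of 1.73 (0.83 to 2.63, adjusted p = 0.0358). In C57BL/6J it had 2.8 ± 2.6 and 3.3 ± 1.3, with 0.18 (-0.67 to 1.02). With equal medians neither FVB/N call was made (adjusted p = 0.0529 for AF357355 and 0.1 for Commd1). Probes with few CG sites were higher in FVB/N DEHP in general, and all 4938 promoters with 1 to 20 CG sites had a median log2 ratio of 0.73 there and 0.34 in C57BL/6J. AF357426 with 9 sites and AF357355 with 15 belong to this class. With the trend on CG sites removed, neither was called, nor Commd1 in FVB/N or Sgce, Tsix, Phlda2 and Pon3 in C57BL/6J.

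Without regard to a model, 3 of the 94 promoters in C57BL/6J had libraries that could not overlap between DEHP and control (3.19%, against 1.67% of all), 1 higher (Ndn, against 0.249% of all) and 2 lower (Begain and Pon3, against 1.42% of all). In FVB/N these were 4 (4.26%, against 1.63% of all), 1 higher (AF357355, against 0.774% of all) and 3 lower (Sgce, Tsix and Th, against 0.859% of all). On the deposited scale the counts are lower limits, because they rest on the means and SDs alone. A change of scale between the groups can alter them, and counts under the other scalings are not given here.

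**Figure D5:**
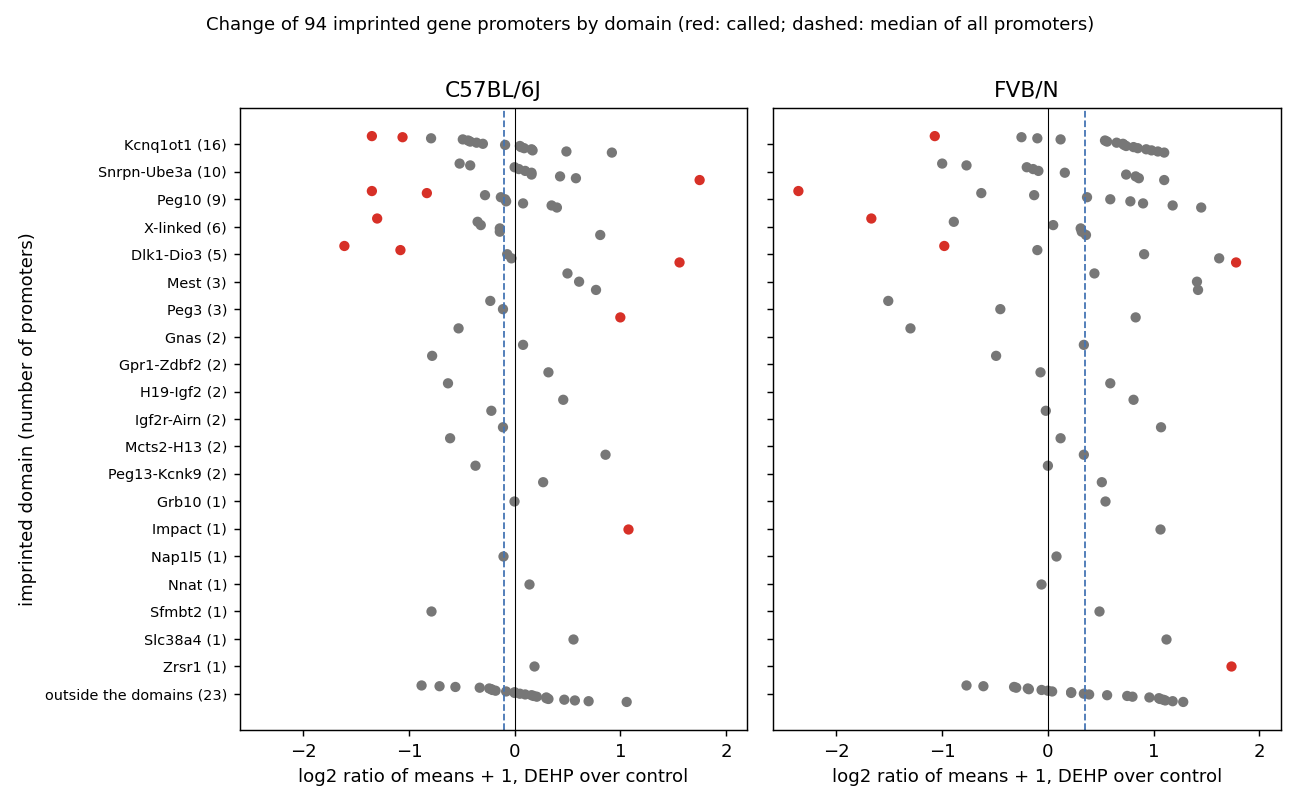
Log2 ratio of means plus 1, DEHP over control, in C57BL/6J (left) and FVB/N (right) for the 94 promoters by domain, with called promoters in red, no change as a solid line and the median of all promoters dashed. Called promoters lie in the Kcnq1ot1, Snrpn-Ube3a, Peg10, Dlk1-Dio3, Peg3, Impact and Zrsr1 domains and the X-linked group, and none among the 23 promoters outside the domains.

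By domain, the Dlk1-Dio3 region on chromosome 12 held called promoters in both directions. In at least 1 strain, 13 of the 94 promoters (13.8%) were called, against 20.2% of all, and 4 of the 5 of this domain, 6430411K18Rik and Begain lower and AF357426 and AF357355 higher. The fifth, the small nucleolar RNA gene AF357425, also over Rian, had 13.8 ± 5.0 and 13.1 ± 5.0 in C57BL/6J control and DEHP. In FVB/N it had 8.4 ± 3.6 and 16.7 ± 1.9 (log2 ratio 0.91, adjusted p = 0.0960). Called promoters of this domain thus moved in opposite directions within each strain. As given above, high promoters fell and probes with few CG sites rose in general. With the trend on CG sites removed, the increases of AF357426 and AF357355 were not called. The decreases of 6430411K18Rik in both strains and of Begain in C57BL/6J were.

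In the Kcnq1ot1 domain, Th and Phlda2 were the called promoters among 16 (20.2% of all promoters were called in at least 1 strain). Its median log2 ratio in C57BL/6J was -0.20 (all promoters -0.10), with 7 positive and 9 negative ratios (43.5% positive over all promoters). In FVB/N it was 0.71 (all promoters 0.35), with 13 positive and 3 negative ratios (69.1% positive over all promoters). With equal sums both strains had 13 positive and 3 negative ratios (68.6% and 66.6% positive over all promoters). The contrast in sign between strains was thus seen on the deposited scale and not with equal sums. The equal-sums medians still differed, 0.26 in C57BL/6J and 0.65 in FVB/N (all promoters 0.33 and 0.29), which was not tested. Kcnq1 had 13.1 ± 4.1 and 14 ± 5.2 in C57BL/6J and 8.6 ± 4.7 and 13 ± 1.2 for FVB/N. Cdkn1c had 10.3 ± 3.8 and 7.8 ± 3.0 in C57BL/6J and 7.2 ± 3.7 and 7.9 ± 2.9 for FVB/N. In the Peg10 domain, Sgce and Pon3 were called among 9 promoters (20.2% of all in at least 1 strain), with domain medians of -0.09 and 0.59. Ppp1r9a, the gene of neurabin next to Sgce, had 8.3 ± 3.1 and 11.3 ± 2.5 in C57BL/6J and 4.0 ± 3.0 and 12.7 ± 2.4 for FVB/N. Its FVB/N log2 ratio of 1.45 was not called (adjusted p = 0.0561), and it stood opposite to the -2.36 of Sgce.

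In the Snrpn-Ube3a region, Ndn was the called promoter among 10 (20.2% of all in at least 1 strain), and the domain medians were 0.13 and 0.04. Magel2 had 7.3 ± 1.8 and 10.2 ± 3.0 in C57BL/6J and 3.8 ± 3.7 and 7.7 ± 4.1 for FVB/N. Snurf had 1.2 ± 0.8 and 1.2 ± 1.0 in C57BL/6J and 1.9 ± 1.7 and 0.7 ± 1.0 for FVB/N. In the Mest domain all 3 log2 ratios were positive in both strains, from 0.50 to 0.77 in C57BL/6J and from 0.44 to 1.42 in FVB/N. Of these 3, 0 were called by limma in C57BL/6J (18.3% of all promoters) or in FVB/N (4.03% of all). An unadjusted p under 0.05 was found for 1 in C57BL/6J (30.6% of all) and 2 in FVB/N (22.4% of all). Cpa4 had 4.8 ± 3.2 and 8.9 ± 2.3 in C57BL/6J and 1.6 ± 1.4 and 5.9 ± 1.8 for FVB/N. Copg2, a coat protein gene that runs against Mest, had 4.9 ± 2.2 and 8.0 ± 2.0 in C57BL/6J and 1.5 ± 1.5 and 5.7 ± 2.0 for FVB/N.

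In the Peg3 domain, Zim1 was the called promoter of 3 (20.2% of all promoters in at least 1 strain). Usp29 had 3.0 ± 2.0 and 2.4 ± 1.5 in C57BL/6J and 8.1 ± 5.9 and 2.2 ± 1.1 for FVB/N, a log2 ratio of -1.51 (adjusted p = 0.0794). Its probe shares 721 bp with that of Peg3, which had 5.4, 6.1, 4.2 and 8.1. Nespas in the Gnas domain had a similar pattern, with 5.2 ± 3.4 and 3.3 ± 1.2 in C57BL/6J and 8.1 ± 4.9 and 2.7 ± 2.6 for FVB/N (log2 ratio -1.30, adjusted p = 0.155). With equal medians Usp29 and Nespas were called lower in FVB/N (adjusted p = 0.0106 and 0.0316). With equal sums, Cpa4, Copg2, Magel2, Ppp1r9a and Slc38a4 were among the promoters called higher in C57BL/6J.

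The 8 genes with an oocyte germline DMR had a median log2 ratio of -0.05 in C57BL/6J (all promoters -0.10) and of 0.21 in FVB/N (all promoters 0.35). In C57BL/6J, Impact was called higher and Sgce lower (18.3% of all promoters were called). In FVB/N, Sgce was called lower (4.03% of all were called). Gnas, Nap1l5 and Peg13 had log2 ratios of 0.08, -0.11 and 0.27 in C57BL/6J and 0.34, 0.08 and 0.51 for FVB/N. Mcts2 had -0.61 and 0.34. Among the 3 genes with H3K27me3-dependent imprinting, 0 were called by limma, with an unadjusted p under 0.05 for 0 in C57BL/6J and 1 in FVB/N. For C57BL/6J, limma called 18.3% of the whole table, and 30.6% had such an unadjusted p. The FVB/N shares were 4.03% and 22.4%. A list of 3 genes is too short to set its counts apart from these shares. Slc38a4 had 5.4 ± 1.3 and 8.4 ± 2.5 in C57BL/6J and 4.2 ± 2.4 and 10.3 ± 4.4 for FVB/N, with log2 ratios of 0.55 and 1.12. Sfmbt2 had -0.79 and 0.48, and Gab1 had -0.71 and -0.32.

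Among the 23 promoters outside the domains, 0 were called by limma in either strain, with an unadjusted p under 0.05 for 2 in C57BL/6J and 7 in FVB/N. Over all promoters the shares called were 18.3% and 4.03%, and those with such an unadjusted p were 30.6% and 22.4%. Their median log2 ratios were 0.05 and 0.34. The largest change in C57BL/6J was that of Zfat, which had 0.2 ± 0.5 and 1.5 ± 1.1 there and 0.5 ± 0.6 and 2.4 ± 1.3 in FVB/N, with log2 ratios of 1.06 (adjusted p = 0.0808) and 1.18 (adjusted p = 0.0952). Osbp2, an oxysterol binding protein gene, had 9.5 ± 3.4 and 4.7 ± 1.5 in C57BL/6J and 9.2 ± 3.2 and 5.0 ± 1.4 for FVB/N, with -0.88 (adjusted p = 0.0631) and -0.77 (adjusted p = 0.198). With equal medians Osbp2 was called lower in both (adjusted p = 0.0376 and 0.0164), and with equal sums Zfat was called higher in C57BL/6J.

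The second comparison asked whether the change with DEHP differed between the strains. In limma's test of the interaction, 0 of the 94 promoters were called, against 0.00445% of all promoters, and 14 had an unadjusted p under 0.05 (14.9%, against 14.8% of all). The count was 0 under each other scaling and setting run. The smallest p among the 94 was that of AF357355, with a difference of log2 ratios (C57BL/6J less FVB/N) of -1.81 (adjusted p = 0.227). Of the promoters called in C57BL/6J alone, Begain had a difference of -0.98 (adjusted p = 0.319), Phlda2 of -0.96 (adjusted p = 0.376) and Ndn of 0.65 (adjusted p = 0.632). A call in a single strain is therefore not shown to differ from the other strain.

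The third comparison was between the strains. In controls, 0 of the 94 promoters were called by limma against 1.86% of all promoters, and 19 had an unadjusted p under 0.05 (20.2%, against 22.2% of all). On the linear scale 2 were called, Nctc1 and Slc22a3, and the share of all promoters at that setting is not given. The median log2 ratio of C57BL/6J over FVB/N was 0.47, against 0.54 over all promoters, and 0.00 with equal sums. Slc22a3, an organic cation transporter gene near Igf2r, had the smallest p, with 12.4 ± 6.3 in C57BL/6J and 2.8 ± 2.4 for FVB/N (log2 ratio 1.82, 0.81 to 2.83, adjusted p = 0.0584). In DEHP samples 0 of the 94 were called against 1.37% of all, and 7 had an unadjusted p under 0.05 (7.45%, against 8.80% of all). The smallest p there was that of Slc22a2, with 19.3 ± 8.3 in C57BL/6J and 11.9 ± 5.5 for FVB/N (log2 ratio 0.65, 0.11 to 1.20, adjusted p = 0.38).

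Of 13 listed factors that set or guard imprints, 12 had a promoter in the table. In C57BL/6J, 4 of these were called lower in DEHP (14.7% of all promoters) and 0 higher (3.65% of all). These were the maintenance methyltransferase gene Dnmt1 (32.9 ± 13.4 to 13.9 ± 2.9), the testis paralog of CTCF, Ctcfl (25 ± 4.8 to 8.7 ± 3.0), the de novo methyltransferase gene Dnmt3a (20.8 ± 9.0 to 10.8 ± 6.7) and its cofactor Dnmt3l (29.4 ± 12.9 to 15.6 ± 5.3). All 4 had at least 20 normalized reads in C57BL/6J controls. By their mean over the 4 groups, Dnmt1 and Dnmt3l fall in the class of at least 20, of which 99.1% of all promoters had a lower mean in C57BL/6J DEHP, and the others in the class of 10 to 20, with 90.7%. Of these 4, Ctcfl was called under all 3 scalings. In FVB/N, 1 was called higher (2.18% of all promoters) and 0 lower (1.85% of all). It was Smchd1, a chromatin protein gene of X inactivation, with 0.2 ± 0.5 in controls and 2.9 ± 2.0 in DEHP, a call that was not made under all 3 scalings. The imprint guardians Zfp57 and Zfp445 were called in neither strain.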

How the data were processed

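Sperm DNA of 20 male mice was captured by a methyl-CpG binding domain and sequenced. Read-pairs were aligned by the authors to mm10 using Bowtie 0.12.7, per the methods and the submitters' processing notes. They removed ambiguous pairs and pairs without a CG in the insert, counted pairs over each promoter probe, normalized the counts with edgeR and deposited the signal as mean and SD per group, with 1 decimal. Deposited columns of the authors' own comparisons (fold changes, p-values and FDR) were not used. Numbers of CG sites and of variants, the imprinting mark and testis expression values are the authors' annotations.

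Members and gene lists were chosen with earlier results of these data known. Coefficients and residual variances for limma 3.58.1 (R 4.3.3) were built from the deposited means and SDs on log2(mean + 1) by the delta method, with a trend on the mean level and adjustment over 22480 promoters. The estimated prior was infinite in C57BL/6J and between the DEHP groups, so that a promoter's own SD carried no weight there. Fits on single libraries, and leaving libraries out, could not be had from means and SDs. Libraries were called separated where the means plus and minus 1.79 SD, widened by 0.05, stayed apart, since 5 values with a given mean and SD lie within that distance of it. Fits were tested on simulated data. Domains took in listed genes and those within 600000 bp. Named promoters were those called or separated, the highest and lowest overall and per domain with at least 3 listed members, the 3 largest changes per strain (mean of at least 5) and the DMR and H3K27me3 lists. Other promoters were named after their values were seen. Sequences came from GRCm38.p6 and exons from GENCODE vM21, by Python 3.11.15 with pysam 0.24.0, numpy 2.4.6, pandas 2.3.3 and matplotlib 3.10.9. Alternatives were equal sums, equal medians, removal of the trend on CG sites (lowess fraction 0.3), a pseudocount of 0.1, the linear scale, limma without trend, and means of at least 1.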

Additional observations from a re-analysis of the deposited data

How the results depend on the processing

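Leaving out each library in turn was not run, since only group values were analysed, and 1 library could decide a mean. No paired analysis was possible because the sample numbers in the labels are unique and the table holds group values. The 11 promoters called in C57BL/6J became 17 with equal sums, 6 with the trend on CG sites removed and 3 where libraries could not overlap, and 9 to 12 under the other alternatives. The 6 called in FVB/N ranged from 4 (limma without the trend, and libraries that could not overlap) to 9 (equal medians). Between control strains the count of 0 became 2 on the linear scale (Nctc1 and Slc22a3) and 1 with means of at least 1. For DEHP against control, shares over all promoters are given above for the deposited scale, equal sums, equal medians and libraries that could not overlap. For every other setting such shares are not given, so that the counts there cannot be set against the whole table. The log2 ratio of AF357355 in C57BL/6J, -0.03, reversed to 0.45 with equal sums (adjusted p = 0.351). Of the 11 C57BL/6J calls, 5 were kept with equal sums, 10 with equal medians, 6 with the CG trend removed and 10 with a pseudocount of 0.1. Of the 6 FVB/N calls these were 6, 4, 4 and 5, and Sgce, Th, 6430411K18Rik and Tsix were kept in all 4. The cause of these shifts was not tested.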

Other observations

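The authors' table pairs genes with expression in testis cell populations from an independent dataset, on a scale that is not stated, and 83 of the 94 imprinted genes had values. Their median was 5.36 in spermatogonia, 5.31 in Sertoli cells, 5.04 in spermatocytes and 5.09 in spermatids, against 5.80, 5.71, 5.67 and 5.68 over all 17133 genes with values. Of the 83, 20 were highest in spermatogonia, 20 in Sertoli cells, 19 in spermatocytes and 24 in spermatids. In 33 of the 83, however, the 4 populations lay at most 1 apart. Another 33 were over 2 apart, of which 7, 12, 8 and 6 were highest in these populations, in the same order. Ndn had 8.21 in spermatogonia, 7.4 in Sertoli cells, 4.04 in spermatocytes and 4.11 in spermatids. Pon3 had 6.29, 7.79, 4.12 and 3.90 in the same order, and Sgce had 6.62, 6.65, 4.95 and 5.14. Commd1 was highest in spermatocytes, with 8.82, 8.01, 10.03 and 9.28. Th and Tsix varied by 0.39 and 0.36 over the 4 populations. These populations were not taken from the mice of this study, and no relation to methylation was tested.

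None of the 94 genes was marked for spermatogenesis by the authors, against 1.70% of all genes, and 11 carried a functional variant between the strains, against 24.8% of all genes.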
